A study of Rattus norvegicus with 52 samples.

Results

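The data compare how the kidneys of 2 congenic rat strains, ET3x1 and ET3x2, differed between a low and a high salt diet after 24 hours. The quantity reported is the interaction: the high minus low difference in ET3x1 rats minus the same difference in ET3x2 rats, on the log2 scale. A positive value means that the difference was more positive in ET3x1 rats, and it does not by itself say in which strain the level moved. The comparison rests on 16 of the 26 rats of the series, 4 in each of 4 groups, and on 32 of its 52 arrays. All 31042 non-control probe sets of the chips RAE230A and RAE230B were tested, 15866 on the first and 15176 on the second, and a probe set carried by both was tested on RAE230A only.

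The S rat (SS/jr) is the Dahl salt-sensitive strain, in which dietary salt raises blood pressure. ET3x1 and ET3x2 are congenic strains, in which part of a chromosome of the R rat, the salt-resistant Dahl strain, replaces the S rat's own. All the rats were males and ate a diet of 0.4% NaCl from weaning at 30 days of age. The low-salt ET3x1 and ET3x2 groups stayed on it, and the high-salt groups were moved to 4% NaCl at 39 to 41 days of age for 24 hours. The left kidney was taken at 40 to 42 days, and RNA of single rats was hybridised to an Affymetrix chip pair. The 5 low-salt and 5 high-salt S rats entered only the estimate of the spread between rats.

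As background, the kidney sets salt balance mainly in the tubules, where transporters of the proximal tubule, thick ascending limb and distal nephron return filtered sodium to the blood. A change of diet is followed by changes in the renin, angiotensin and aldosterone hormones and in the transporters they control. An interaction between strain and diet shows where the genotype and the diet act together on an RNA level, which neither the strain difference nor the diet difference shows alone.

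The samples carried tubule markers of the kidney. The probe sets of 4 of 4 proximal tubule markers, 2 of 2 thick ascending limb markers and 3 of 3 collecting duct markers were at or above the median level of their chip, against 0 of 3 adipocyte and 0 of 3 hepatocyte markers. Of the adrenal cortex markers, 1 of 3 was. Also at or above it were 2 of 2 erythroid, 3 of 3 smooth muscle and 2 of 3 leukocyte markers (Ptprc was below). Among the scarcer kidney cell types it was 2 of 4 podocyte markers (Wt1 and Nphs1 were below), 1 of 2 of the distal convoluted tubule (Pvalb was below) and 2 of 3 of the endothelium (Flt1 was below). In whole tissue, fewer cells of a type and less RNA per cell cannot be told apart. Replicate arrays of these groups correlated at 0.977 to 0.998, and no arrays held the same values. The number of arrays, 4 a group, limits the precision: the median standard error (SE) of the interaction was 0.12, and the median absolute interaction of all probe sets was 0.11.

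The high-salt ET3x1 arrays stood apart from the other congenic rats in some control measures and not in others. The 3' minus 5' difference of the Gapdh control probe sets, a measure of RNA integrity and labelling in which a larger value means less signal toward the 5' end, was 0.56 to 0.61 on their RAE230A arrays and 0.65 to 1.01 in the other 12 congenic rats. The same difference for beta-actin on RAE230B was 0.25 to 0.34 in the high-salt ET3x1 rats and 0.46 to 1.11 in the other 12. The difference between the hybridisation spike-ins bioD and bioC on RAE230B was 2.87 to 3.15 in the high-salt ET3x1 rats and 1.98 to 2.34 in the other 12, again with no overlap. In the 10 S rats it was 1.86 to 3.04. On RAE230A the spike-in difference was 2.95 to 3.29, against 2.14 to 2.85 in the other 12. The ranges overlapped for Gapdh on RAE230B (0.37 to 0.55 against 0.48 to 0.85) and for beta-actin on RAE230A (0.52 to 0.73 against 0.70 to 1.41). Exact permutation tests of the diet labels within each strain, over 4900 arrangements and 10 measures, gave an interaction of 0.92 for the RAE230B spike-ins (two-sided p = 0.00245, adjusted p = 0.0204, n = 4 rats a group). They gave an interaction of -0.05 for the array median of RAE230B (exact p = 0.00408, adjusted p = 0.0204, n = 4) and adjusted p of 0.0721 or more for the other 8. For Gapdh and beta-actin both strains had lower means on high salt, and the exact p of the interaction was 0.149 to 0.589. The gene results were refitted with these measures as covariates, as given beside the counts. Where the high-salt ET3x1 rats do not overlap the others in a measure, such a fit cannot separate the measure from the group. The part of these differences in the gene results was therefore not tested.

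**Figure D1:**
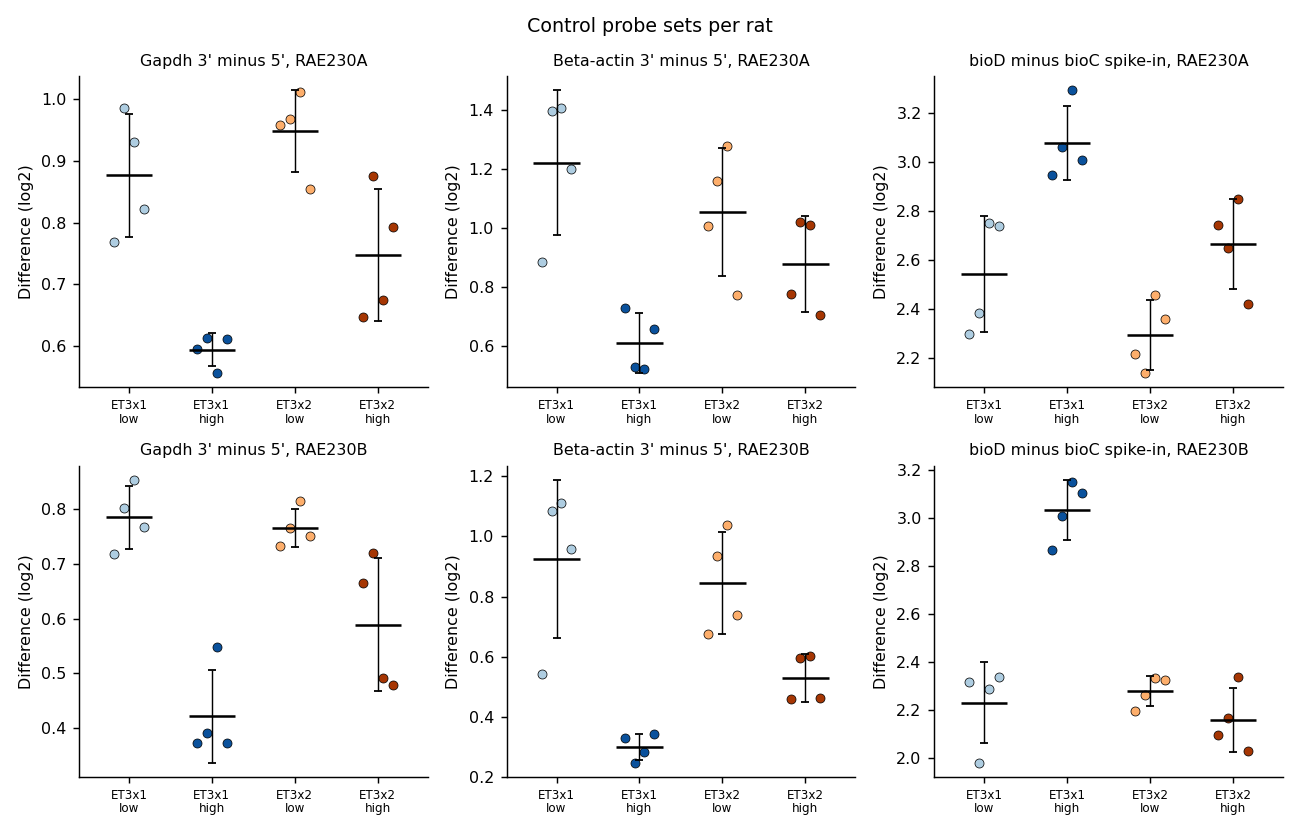
Control measures of each congenic rat (points, 4 a group) on RAE230A (top) and RAE230B (bottom), as log2 differences between control probe sets of the same array, with the group mean and SD as lines. The high-salt ET3x1 rats lie between 2.87 and 3.15 for the RAE230B spike-ins, above the other 12 rats.

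The interaction passed an adjusted p below 0.05 (limma, Benjamini-Hochberg over both chips) in 29 probe sets, 0.0934% of those tested. Of these, 24 were positive (0.0773%) and 5 negative (0.0161%), and 24 had a single gene symbol. RAE230A held 13 of the 29, of which 10 were positive. RAE230B, the chip whose spike-ins and array median had an interaction, held 16. Of all probe sets tested, 54.8% had an interaction above 0 on RAE230A and 39.7% on RAE230B. Named genes with a positive interaction included Mmut, Actr3, Krcc1, Papss2, Cav2 and Trib2, and those with a negative one were Erbin, Pgpep1 and Tns1. The absolute interactions of the 29 ran from 0.42 to 1.97, with a median of 0.81, and 12 exceeded 2-fold. The adjusted p-values lay close to the threshold, between 0.0324 and 0.0489. The first probe set outside it, which has no gene symbol, had an interaction of 1.58 and an adjusted p of 0.0509. At an unadjusted p below 0.05 there were 4338 probe sets, 14.0% of those tested, of which 2125 (6.85%) were positive and 2213 (7.13%) negative.

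The number of probe sets past the threshold was not stable. Leaving out 1 rat at a time gave 0 to 388. With limma the count was 0 without any 1 of 6 rats, which were replicate 3 of high-salt ET3x1, replicates 2 and 3 of low-salt ET3x1, replicates 2 and 3 of high-salt ET3x2 and replicate 2 of low-salt ET3x2, and 3376 to 4059 probe sets then had an unadjusted p below 0.05. It was 388 without replicate 1 of low-salt ET3x1. With the Gapdh difference of each array as a covariate it was also 0, with 3938 at an unadjusted p below 0.05, and with beta-actin or the spike-ins it was 2 and 3. The covariate fits cannot separate a measure from the high-salt ET3x1 group where their ranges stood apart, as given above. The share of positive ones also moved. It was 82.8% of the 29, 72.4% of 58 with array medians centred, 62.2% of 143 with the 16 congenic rats alone, 59.6% of 47 over probe sets at or above the chip median and 52.2% of 2146 with array weights. The fit over probe sets at or above the chip median tested only 18 of the 29. Each of the 29 kept its sign and an unadjusted p below 0.05 in every one of these fits that tested it. The 29 were chosen in the same rats and the fits share most of the values, so this is no separate evidence. Their sizes moved: relative to the values reported, they were 0.814 to 1.15 times as large with 1 rat left out, 0.83 to 1.10 times with the Gapdh covariate, 0.759 to 1.30 times with beta-actin and 0.598 to 1.54 times with the spike-ins.

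**Figure D2:**
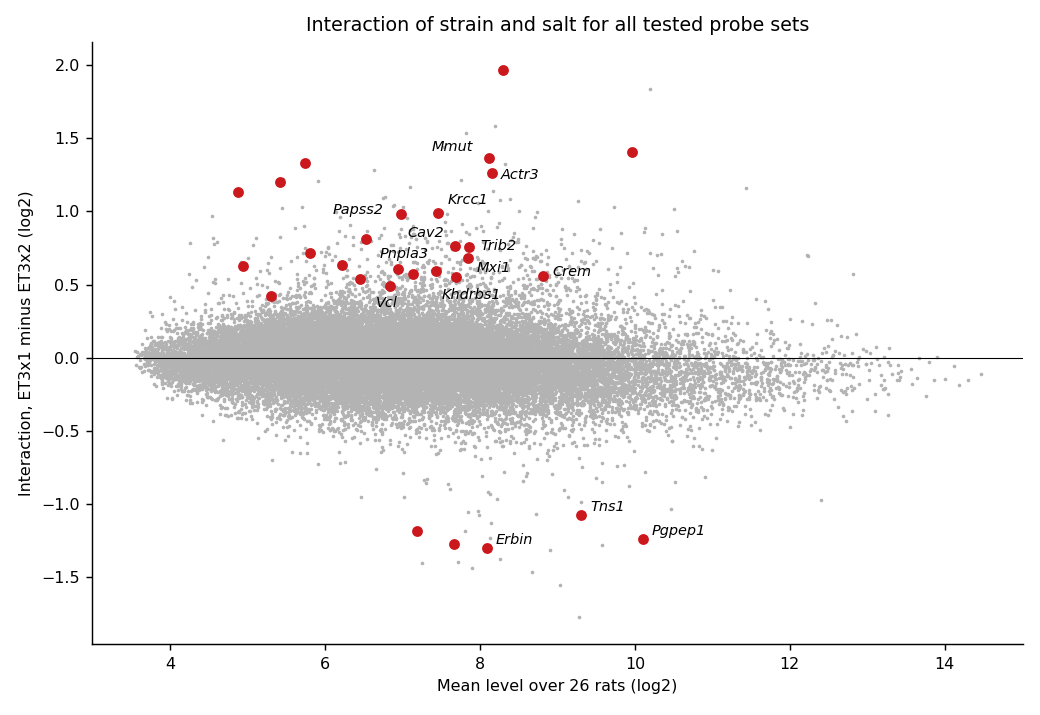
Interaction (log2, vertical axis) against the mean level over 26 rats (log2, horizontal axis) for each tested probe set. The 29 past the threshold are red, with the 14 described in detail named; 24 lie above 0 and 5 below.

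In most of these probe sets the high-salt ET3x1 group was the one farthest from the median of the 4 group means. That held for 21 of 29 (72.4%), against 41.8% of all probe sets tested. Low-salt ET3x1 was farthest in 7, low-salt ET3x2 in 1 and high-salt ET3x2 in 0. The high minus low differences of the strains had opposite signs in 18 of 29 (62.1%), against 43.8% of all. The 29 were chosen by the same contrast, which favours such patterns. These shares are therefore description, and those of all probe sets are no like reference.

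The 14 genes named below are those past the threshold that had 1 symbol and a mean level at or above the chip median. In each of the 14 the ranges of the high-salt and low-salt ET3x1 rats did not overlap, while the ranges of the ET3x2 rats did. The 14 were chosen by the same contrast, which favours such a pattern. The ranges are therefore given as description and are no separate evidence. The share of all probe sets with this pattern is not given. Values below are deposited log2 levels of 1 probe set a gene, in replicate order, and levels of different genes are not comparable on these arrays. Mmut, Actr3, Krcc1, Papss2, Trib2, Pnpla3 and Vcl were read on RAE230B and the rest of the 14 on RAE230A.

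Among genes of the cytoskeleton and its membrane anchors, Actr3 encodes a core subunit of the Arp2/3 complex, which nucleates branched actin filaments. Its levels were 7.62, 7.22, 7.29 and 7.53 in low-salt ET3x1 rats and 8.72, 9.04, 9.10 and 9.00 in high-salt ET3x1 rats. In ET3x2 rats they were 7.85, 7.97, 7.48 and 7.62 on low salt and 8.31, 7.31, 8.25 and 8.20 on high salt. All 4 high-salt ET3x1 rats were above every other congenic rat, and replicate 2 of high-salt ET3x2 lay far below its group. The interaction was 1.26 ± 0.24 (SE, adjusted p = 0.0351), and the array set had no other probe set for the gene.

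Vcl encodes vinculin, which links integrin adhesions and cell junctions to actin. It read 6.82, 6.83, 6.70 and 6.87 on low salt and 7.29, 7.14, 7.32 and 7.17 on high salt in ET3x1. The ET3x2 values were 6.75, 6.77, 6.77 and 6.76 on low salt and 6.80, 6.59, 6.63 and 6.76 on high salt. The high-salt ET3x1 rats were the 4 highest and the others lay within 0.3 of each other, giving an interaction of 0.49 ± 0.10 (adjusted p = 0.0351). The other Vcl probe sets gave 0.69 ± 0.35 (adjusted p = 0.378) and 0.13 ± 0.13 (adjusted p = 0.674).

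Tns1 encodes tensin 1, an actin-binding protein of focal adhesions, and its interaction was negative. Its levels in ET3x1 were 9.88, 10.01, 9.50 and 9.61 on low salt and 8.45, 8.45, 8.45 and 8.46 on high salt. In ET3x2 they were 10.03, 9.87, 9.81 and 10.02 on low salt and 9.71, 9.59, 9.91 and 9.61 on high salt. The 4 high-salt ET3x1 rats were nearly equal and more than 1 log2 unit below all others, and the interaction was -1.07 ± 0.21 (adjusted p = 0.0364). The other 3 probe sets of the gene gave -0.28 ± 0.12 (adjusted p = 0.28), 0.15 ± 0.12 (adjusted p = 0.591) and -0.07 ± 0.25 (adjusted p = 0.932).

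Erbin encodes a scaffold protein of the basolateral membrane that binds the receptor ERBB2. It read 8.41, 8.22, 8.76 and 8.58 on low salt and 7.48, 7.76, 7.76 and 7.53 on high salt in ET3x1 rats. In ET3x2 rats it read 7.81, 7.86, 8.09 and 7.82 on low salt and 8.32, 8.47, 8.72 and 7.82 on high salt. The strains lay in opposite order under the diets: on low salt every ET3x1 rat was above every ET3x2 rat, and on high salt every one was below. The interaction was -1.30 ± 0.22 (adjusted p = 0.0324), and a second probe set gave 0.13 ± 0.17 (adjusted p = 0.772).

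Cav2 encodes caveolin 2, a coat protein of the membrane pits called caveolae. Its levels were 7.48, 7.22, 7.18 and 7.15 on low salt and 7.82, 8.09, 8.20 and 7.98 on high salt in ET3x1. They were 7.54, 7.44, 7.69 and 7.42 on low salt and 7.68, 7.19, 7.65 and 7.58 on high salt in ET3x2. Again the 4 highest values were those of high-salt ET3x1, and the interaction was 0.76 ± 0.15 (adjusted p = 0.0364). The other 3 Cav2 probe sets, all below the chip median, had the same sign, at 0.96 ± 0.25, 0.23 ± 0.09 and 0.26 ± 0.12 (adjusted p = 0.0924 to 0.31).

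Of the regulators of transcription and RNA, Crem encodes a cyclic AMP-responsive transcription factor with activator and repressor forms. In ET3x1 it read 8.38, 8.62, 8.55 and 8.72 on low salt and 8.94, 9.08, 9.05 and 8.90 on high salt. The ET3x2 rats had 8.98, 8.97, 8.82 and 8.86 on low salt and 8.78, 8.57, 8.73 and 9.02 on high salt. The low-salt ET3x1 rats were below every low-salt ET3x2 rat, whereas on high salt the strains overlapped. The interaction was 0.56 ± 0.11 (adjusted p = 0.0378), and a probe set of lower signal gave 0.34 ± 0.08 (adjusted p = 0.071). The other 4 Crem probe sets gave 0.15 ± 0.15, 0.13 ± 0.12, 0.10 ± 0.15 and 0.02 ± 0.05 (adjusted p = 0.651 to 0.912).

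Mxi1 encodes a partner of MAX that opposes MYC at promoters. Its levels in ET3x1 were 7.60, 7.39, 7.32 and 7.41 on low salt and 8.07, 8.31, 8.38 and 8.10 on high salt. In ET3x2 they were 7.65, 7.73, 7.84 and 7.70 on low salt and 7.80, 7.49, 8.01 and 8.03 on high salt. ET3x1 rats were below all ET3x2 rats on low salt and above all of them on high salt, with an interaction of 0.68 ± 0.13 (adjusted p = 0.0364). The brighter Mxi1 probe set gave -0.13 ± 0.14 (adjusted p = 0.704).

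Khdrbs1 encodes Sam68, an RNA-binding protein of the signalling and splicing machinery. It read 7.29, 7.42, 7.44 and 7.54 on low salt and 7.75, 7.89, 7.94 and 7.69 on high salt in ET3x1. It read 7.69, 7.91, 7.83 and 7.55 on low salt and 7.61, 7.48, 7.69 and 7.57 on high salt in ET3x2. The low-salt ET3x1 group was below low-salt ET3x2, and the high-salt groups overlapped. The interaction was 0.55 ± 0.11 (adjusted p = 0.0365), and the brighter probe set gave -0.02 ± 0.11 (adjusted p = 0.954).

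A group of 3 metabolic enzymes had positive interactions. Mmut encodes the mitochondrial methylmalonyl-CoA mutase, which passes breakdown products of some amino acids and odd-chain fatty acids to the citric acid cycle. Its levels in ET3x1 were 7.94, 7.00, 7.00 and 7.35 on low salt and 8.73, 9.19, 9.25 and 8.70 on high salt. In ET3x2 they were 7.75, 7.98, 7.68 and 7.64 on low salt and 8.31, 7.55, 8.33 and 7.99 on high salt. Above all others were the high-salt ET3x1 rats, and the low-salt groups overlapped through replicate 1 of ET3x1. The interaction was 1.36 ± 0.27 (a 2.57-fold ratio of ratios, adjusted p = 0.0364), and the other 2 probe sets had the same sign at 0.42 ± 0.17 (adjusted p = 0.251) and 0.74 ± 0.31 (adjusted p = 0.285).

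Papss2 encodes the enzyme that makes the sulfate donor PAPS. It read 6.53, 6.55, 6.56 and 6.43 on low salt and 7.34, 7.83, 7.49 and 7.34 on high salt in ET3x1. It read 6.96, 7.02, 6.96 and 6.70 on low salt and 6.93, 6.67, 6.89 and 7.13 on high salt in ET3x2. ET3x1 rats were the 4 lowest on low salt and the 4 highest on high salt, with an interaction of 0.98 ± 0.19 (adjusted p = 0.0351). With the spike-in covariate it was 1.52 ± 0.20 (adjusted p = 0.000677), but the high-salt ET3x1 rats did not overlap the other congenic rats in that covariate. With the Gapdh or the beta-actin covariate the Papss2 interaction did not pass. The brighter probe set, on the other chip, gave 0.02 ± 0.11 (adjusted p = 0.965).

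Pnpla3 encodes a lipid droplet lipase. Its levels were 6.83, 6.67, 6.75 and 6.82 on low salt and 7.22, 7.08, 7.45 and 7.29 on high salt in ET3x1. They were 6.83, 6.91, 6.92 and 6.79 on low salt and 6.85, 6.66, 6.68 and 6.79 on high salt in ET3x2. All 4 high-salt ET3x1 rats stood alone above the rest, and the interaction was 0.60 ± 0.11 (adjusted p = 0.0331). The other 2 probe sets gave 0.26 ± 0.13 (adjusted p = 0.375) and 0.06 ± 0.15 (adjusted p = 0.889).

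The remaining genes have separate roles. Trib2 encodes a pseudokinase that brings a ubiquitin ligase to C/EBP transcription factors. It read 7.84, 7.59, 7.39 and 7.47 on low salt and 8.13, 8.46, 8.53 and 8.39 on high salt in ET3x1. It read 7.55, 7.74, 7.78 and 7.62 on low salt and 7.95, 7.51, 7.77 and 7.67 on high salt in ET3x2. The high-salt ET3x1 rats were the 4 highest, and the interaction was 0.76 ± 0.16 (adjusted p = 0.0489). With the spike-in covariate it was 0.49 ± 0.19 and did not pass (adjusted p = 0.361). The second probe set gave 0.05 ± 0.11 (adjusted p = 0.878).

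Krcc1 encodes a lysine-rich coiled-coil protein. Its levels in ET3x1 were 7.26, 6.98, 6.98 and 7.04 on low salt and 7.85, 8.21, 8.10 and 8.04 on high salt. In ET3x2 they were 7.07, 7.45, 7.18 and 7.26 on low salt and 7.27, 7.05, 7.24 and 7.40 on high salt. Only the high-salt ET3x1 group left the common range, with an interaction of 0.99 ± 0.19 (adjusted p = 0.0351). A probe set on the other chip gave 0.17 ± 0.14 (adjusted p = 0.619).

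Pgpep1 encodes a peptidase that removes pyroglutamate from the amino end of peptides such as thyrotropin-releasing hormone. It read 10.37, 10.62, 11.07 and 10.70 on low salt and 10.02, 10.04, 9.86 and 9.83 on high salt in ET3x1. It read 9.60, 9.43, 9.83 and 9.60 on low salt and 10.00, 10.27, 10.35 and 9.78 on high salt in ET3x2. The low-salt ET3x1 rats were the 4 highest and the high-salt groups overlapped, with an interaction of -1.24 ± 0.22 (adjusted p = 0.0331). The gene had 1 probe set.

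**Figure D3:**
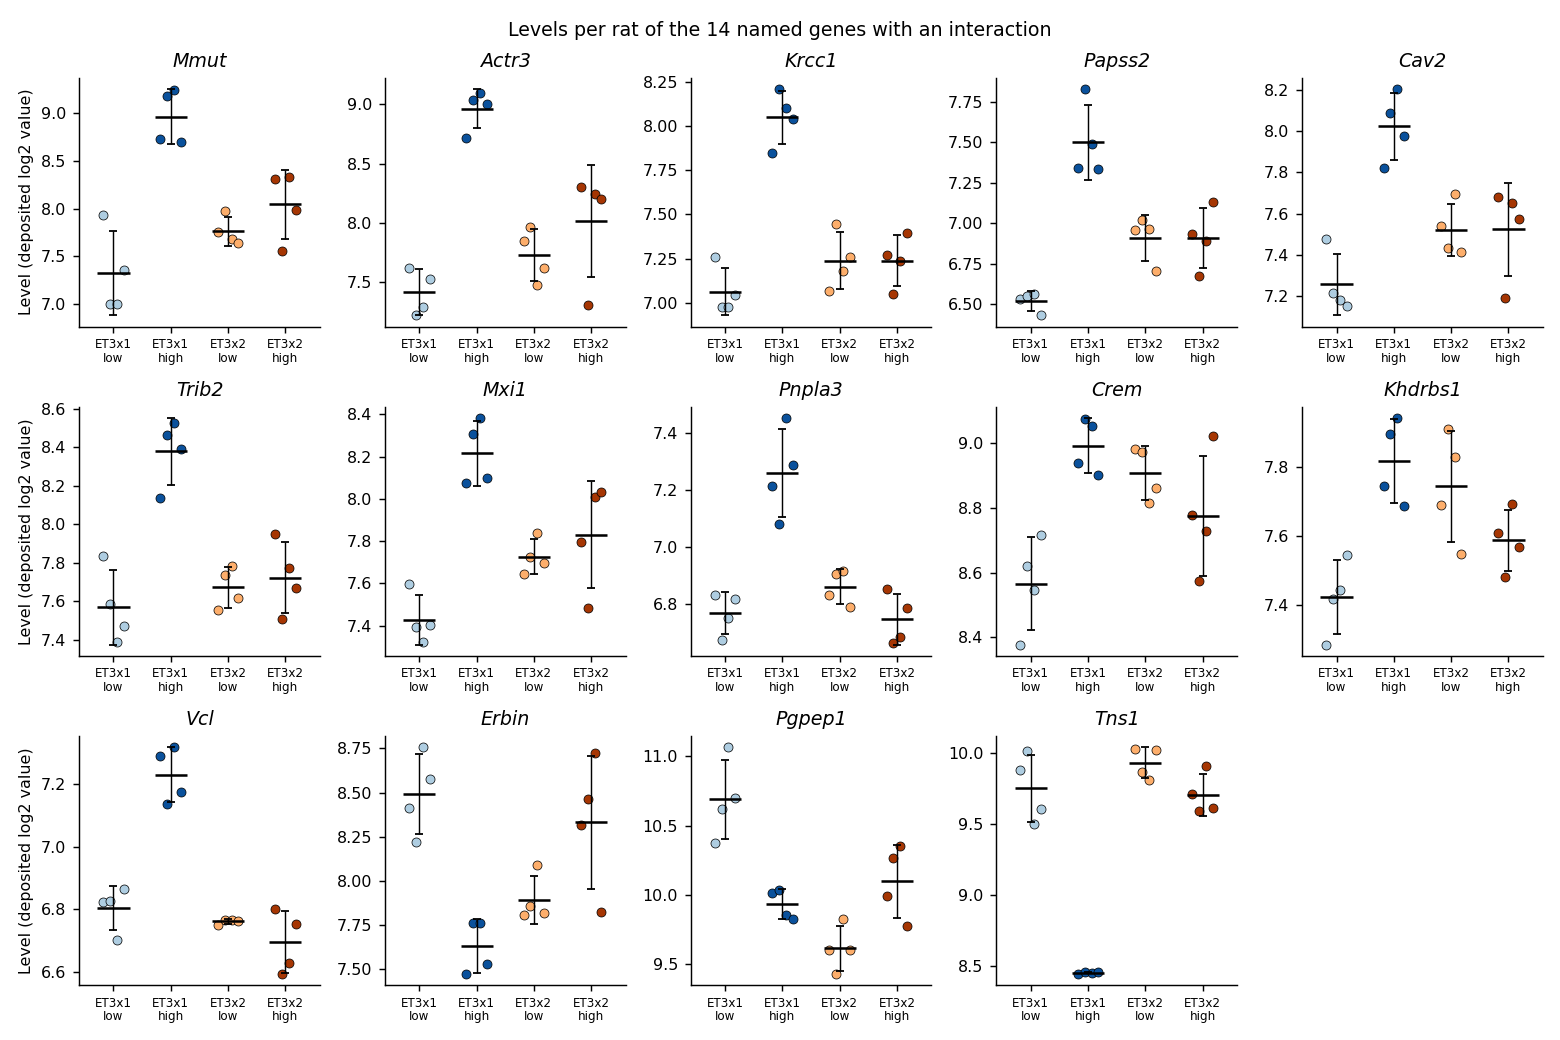
Deposited log2 level (vertical axis) of each of the 14 named genes in every congenic rat (points), with group mean and SD as lines; each panel has its own range. In 11 panels the high-salt ET3x1 rats lie above the low-salt ET3x1 rats and in 3 below, without overlap, while the ET3x2 groups overlap in all 14. The genes were chosen by the same contrast.

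A further 10 genes with a symbol passed the threshold from probe sets below the chip median, where signal is weakest, and all 10 were positive. They are given here after their values were seen. The widest were Caprin1 at 1.33 ± 0.23, Tm9sf3 at 1.20 ± 0.25 and Eif1a at 1.13 ± 0.23. The clock repressor Nr1d2 had 0.72 ± 0.13 and the Notch target Hes5 0.54 ± 0.11. Prkar2a, a regulatory subunit of protein kinase A, had 0.81 ± 0.16, Heca 0.63 ± 0.12, the actin-to-membrane linker Rdx 0.63 ± 0.13, Kalrn 0.59 ± 0.11 and Nploc4 0.57 ± 0.09. Except for Kalrn, the brightest probe set of the gene was another one and did not pass (adjusted p = 0.554 to 0.918). It gave -0.04 ± 0.13 for Caprin1, -0.04 ± 0.12 for Tm9sf3, 0.09 ± 0.12 for Eif1a and 0.17 ± 0.18 for Nr1d2. For Hes5 it gave 0.13 ± 0.10, for Prkar2a 0.12 ± 0.12, for Heca 0.20 ± 0.16, for Rdx -0.16 ± 0.13 and for Nploc4 -0.15 ± 0.23. Brightest means the highest mean deposited level, although the median level was 7.51 on RAE230A and 6.38 on RAE230B. The choice thus favours RAE230A. The remaining Rdx probe sets gave 0.76 ± 0.26, -0.43 ± 0.16, 0.18 ± 0.15 and 0.06 ± 0.16 (adjusted p = 0.186 to 0.891). The first of them, on RAE230B, had a mean of 8.59, against 9.03 for the brightest on RAE230A.

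Probe sets of the same gene often gave different interactions. Of the 24 genes, 22 had another probe set, 49 in all, of which 37 had the sign of the one past the threshold (75.5%) and 15 an unadjusted p below 0.05 (30.6%, against 14.0% of all probe sets). None of the 49 passed the adjusted threshold in limma. The probe set past the threshold was the brightest of its gene in 6 of 24 genes: Actr3, Cav2, Crem, Kalrn, Pgpep1 and Pnpla3. Over all 13807 genes by their brightest probe set, those 6 were the only ones past it (0.0435%), and the average of each gene's probe sets gave 0 in limma, with 1886 at an unadjusted p below 0.05.

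The 100 probe sets that both chips carry give a repeat of the same RNA on a second array. Their interactions on RAE230A and RAE230B correlated across probe sets at a Pearson r of 0.37 and a Spearman rho of 0.21, with the rats shared and probe sets not independent. Their median was -0.05 on RAE230A and 0.07 on RAE230B, and RAE230B gave the higher value in 77. The sign matched in 46 of 100, and the values differed by less than 2 combined standard errors in 93. The standard errors were combined as if the chips were independent, although both held RNA of the same rats, so the 93 does not measure agreement. The SD of the difference between the chips was 0.21, against a median absolute interaction of 0.10 on RAE230A. By the pattern of the shared probe sets, 12 of 16 congenic rats had their RAE230A array correlate best with their own RAE230B array. Another 3 correlated best with an array of their own group. Replicate 1 of high-salt ET3x2 correlated at 0.085 with its own array and best, at 0.479, with high-salt S replicate 2. Each chip was fitted separately, and without that ET3x2 rat 50 probe sets passed.

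**Figure D4:**
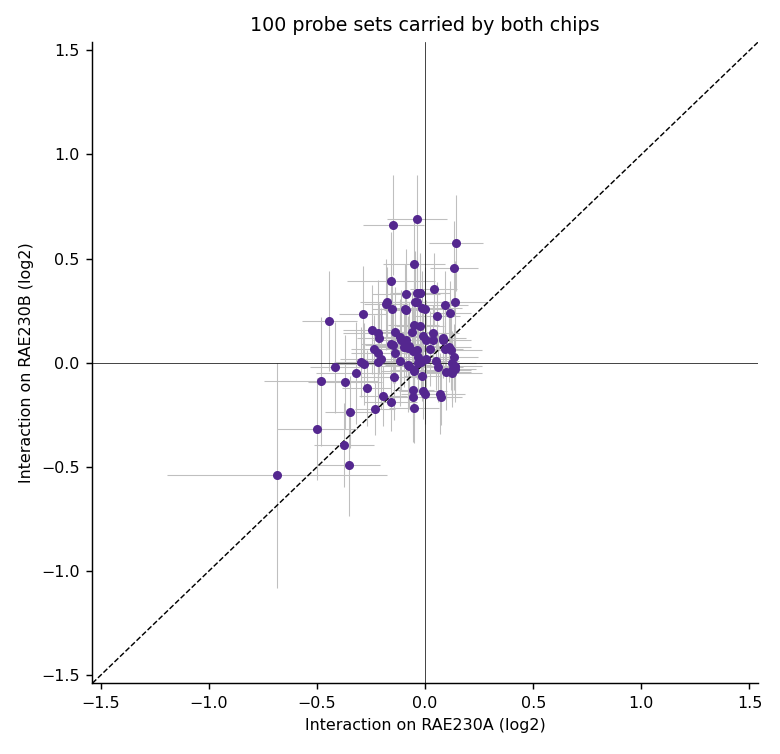
Interaction of each of the 100 probe sets carried by both chips, on RAE230A (horizontal) and RAE230B (vertical), in log2 with SE bars; the dashed line marks equal values. Of the 100 points, 77 lie above the line, with a Pearson r of 0.37.

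Gene lists of kidney function were read by the brightest probe set of each gene, by deposited level with the chips not put on 1 scale. The 35 lists held 662 genes tested, and 0 of them passed the adjusted threshold by that probe set in limma, while Vcl, Tns1 and Nr1d2 passed by another. The lists are therefore described by genes at an unadjusted p below 0.05, which 13.1% of all 13807 genes reached (5.69% positive, 7.36% negative), and by their median beside the median of all genes, -0.01. None of the genes named from the lists passed the adjusted threshold. Those whose rats are given singly were picked by their interaction statistic, which favours groups that stand apart. Their ranges are description, and the share of all probe sets with such ranges is not given. Quantile normalization turned the sign of the median in 11 of the 35 lists and centring the array medians in 1.

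**Figure D5:**
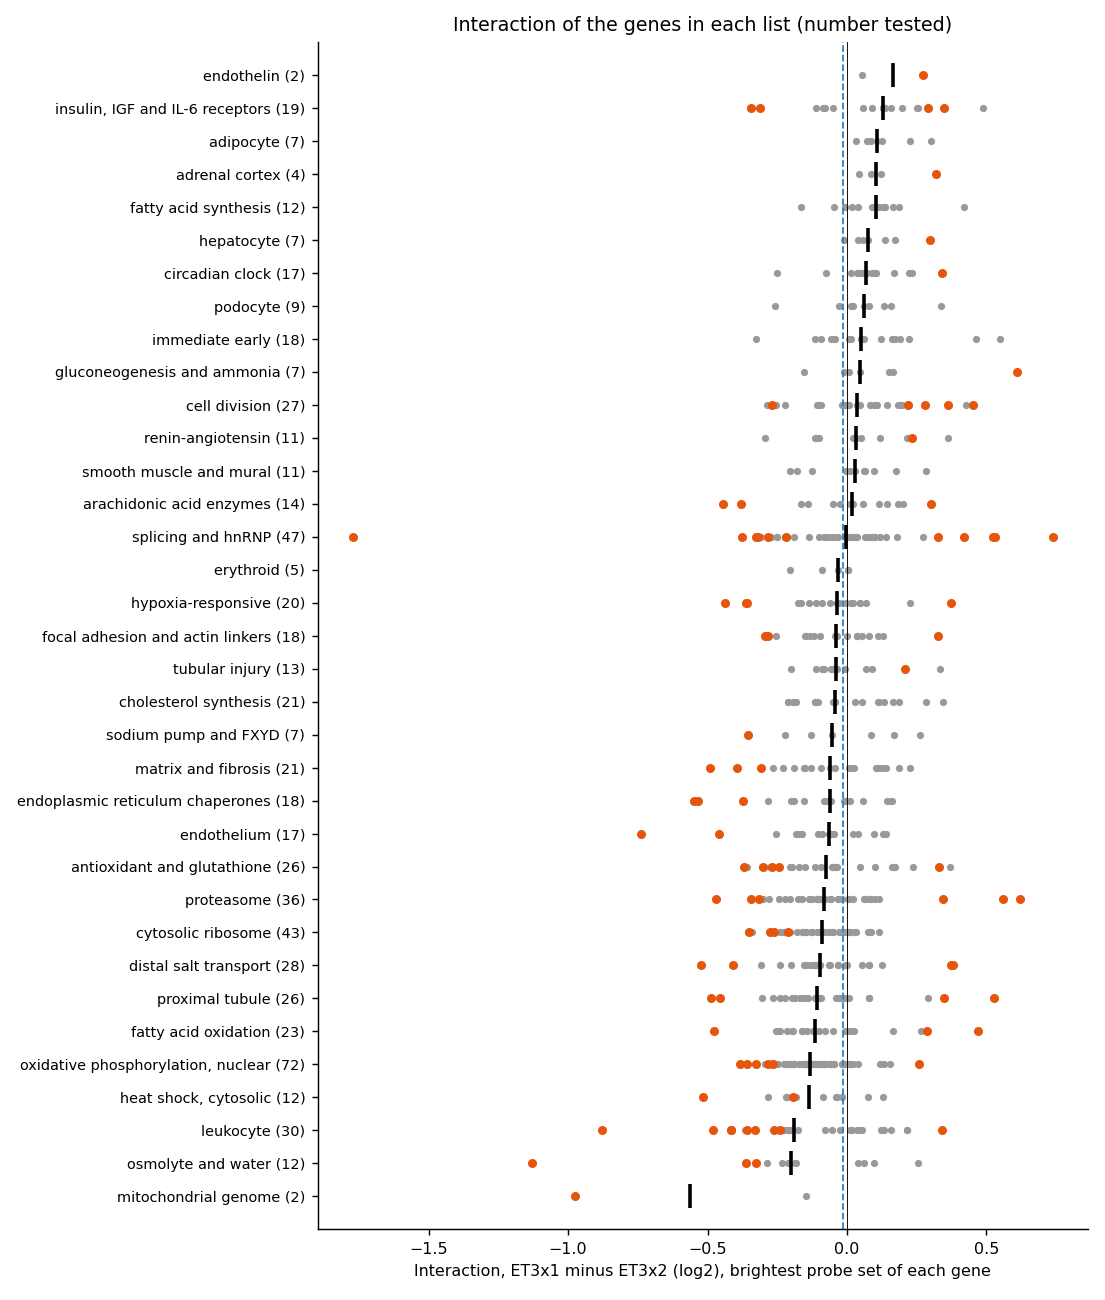
Interaction (log2) of each tested gene in the 35 lists, by brightest probe set, sorted by list median (black bar), with the number tested in brackets. Orange points have an unadjusted p below 0.05, the dashed line is the median of all genes, and list medians other than the mitochondrial genome's lie between -0.20 and 0.16.

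No gene of the salt transport lists passed. Of 28 distal salt transport genes, 2 were positive and 2 negative at an unadjusted p below 0.05, with a list median of -0.10 (-0.04 after quantile normalization). Scnn1g, the gamma subunit of the epithelial sodium channel, read 8.37, 8.28, 8.33 and 8.24 on low salt and 8.65, 8.66, 8.81 and 8.43 on high salt in ET3x1. In ET3x2 it read 8.47, 8.47, 8.60 and 8.70 on low salt and 8.44, 8.54, 8.41 and 8.66 on high salt. The interaction of 0.38 ± 0.11 did not pass (adjusted p = 0.109). The ET3x1 groups did not overlap and the ET3x2 groups did, which is no separate evidence in a gene picked by this statistic. Cldn16, the tight junction claudin of the thick ascending limb, had 0.37 ± 0.13 (adjusted p = 0.184), and Slc12a3, the thiazide-sensitive cotransporter, -0.41 ± 0.15 (adjusted p = 0.223).

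Of 26 proximal tubule genes, 2 were positive and 2 negative, with a median of -0.11 (-0.03 after quantile normalization). The phosphate and urate transporter Slc17a3 had -0.49 ± 0.13 (adjusted p = 0.0966) and Amn, the partner of cubilin in protein uptake, -0.46 ± 0.18 (adjusted p = 0.252). Among 7 sodium pump and FXYD genes, 1 reached an unadjusted p below 0.05, Fxyd5 at -0.35 ± 0.15 (adjusted p = 0.293), and the median of -0.05 became 0.06 after quantile normalization.

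Osmolyte and water genes had a list median of -0.20, with 0 positive and 3 negative of 12. Slc5a3 encodes the myo-inositol cotransporter that renal cells use to hold osmolytes. It read 8.73, 8.64, 8.88 and 8.60 on low salt and 7.70, 7.78, 7.16 and 6.90 on high salt in ET3x1. The ET3x2 values were 8.71, 8.75, 8.36 and 8.51 on low salt and 8.29, 8.49, 8.44 and 8.32 on high salt. The high-salt ET3x1 rats were the 4 lowest, and the interaction of -1.13 ± 0.29 did not pass (adjusted p = 0.0933). The taurine transporter Slc6a6 had -0.33 ± 0.14 (adjusted p = 0.302) and the water channel Aqp3 -0.36 ± 0.18 (adjusted p = 0.353).

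None of the hormone and early-response genes passed. Sgk1, the aldosterone-induced kinase that raises sodium channel activity, had means of 10.20 ± 0.49 on low salt and 9.89 ± 0.11 on high salt in ET3x1 and 10.36 ± 0.20 and 10.17 ± 0.27 in ET3x2 (SD, n = 4). Its interaction was -0.12 ± 0.27 (adjusted p = 0.878). Agt, encoding angiotensinogen, had 0.03 ± 0.18 (adjusted p = 0.953) from a probe set below the chip median. Of 11 renin-angiotensin genes 1 was positive, Lnpep at 0.23 ± 0.11 (adjusted p = 0.334). Of the 2 endothelin genes tested, Edn1 had 0.27 ± 0.11 (adjusted p = 0.268) and the converting enzyme Ece1 0.06 ± 0.11 (adjusted p = 0.854). None of 18 immediate early genes reached an unadjusted p below 0.05, with Fos at 0.19 ± 0.10 and Ier2 at -0.33 ± 0.17.

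The clock list lay mostly on the positive side, with 15 of 17 genes above 0, against 46.7% of all genes, and a median of 0.07 (0.05 after quantile normalization). Its leading gene by the brightest probe set was Hlf, a clock output factor, at 0.34 ± 0.12 (adjusted p = 0.217), the 1 of 17 with an unadjusted p below 0.05. Cry2, a core repressor, had 0.23 ± 0.12 (adjusted p = 0.378). The brightest Nr1d2 probe set had 0.17 ± 0.18 (adjusted p = 0.715), against 0.72 for the dim one. Clock genes follow the hour of day, and hours of killing were not given in the sources used here.

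Among the brightest probe sets of the metabolic lists, that of Got1, the cytosolic aspartate aminotransferase, had the smallest adjusted p. It read 9.92, 9.88, 9.93 and 10.12 on low salt and 10.36, 10.48, 10.50 and 10.55 on high salt in ET3x1. The ET3x2 rats had 10.45, 10.46, 10.14 and 10.25 on low salt and 10.19, 9.99, 10.29 and 10.43 on high salt. The low-salt ET3x1 rats lay below the low-salt ET3x2 rats, and the interaction of 0.61 ± 0.15 did not pass (adjusted p = 0.0787). Got1 was the 1 of 7 gluconeogenesis and ammonia genes with an unadjusted p below 0.05, and Mdh1 in that list had -0.15 ± 0.11.

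Of 23 fatty acid oxidation genes, 2 were positive and 1 negative, with a median of -0.12. They included the coactivator Ppargc1a at 0.47 ± 0.17 (adjusted p = 0.213) and the thioesterase Acot1 at -0.48 ± 0.14 (adjusted p = 0.127). None of 12 fatty acid synthesis genes and none of 21 cholesterol synthesis genes reached an unadjusted p below 0.05, with medians of 0.10 and -0.04. Fasn had 0.19 ± 0.15, Elovl6 0.14 ± 0.10, Sqle 0.29 ± 0.15 and Insig2 -0.21 ± 0.10. Of 14 arachidonic acid enzymes, Ptgs2 had 0.30 ± 0.10 (adjusted p = 0.173) from a dim probe set and Ptgds -0.45 ± 0.17 (adjusted p = 0.234). Of 26 antioxidant and glutathione genes, 1 was positive and 4 negative, among them Sod2 at 0.33 ± 0.12 and Gsta4 at -0.37 ± 0.13.

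Genes of oxidative phosphorylation coded in the nucleus lay mostly below 0, in 62 of 72, with a median of -0.13. After quantile normalization the median was -0.02, while with array medians centred it was -0.15 and with the Gapdh covariate -0.11. At an unadjusted p below 0.05 there were 1 positive and 5 negative genes (8.33%, against 13.1% of all genes), led by the complex I subunit Ndufb5 at -0.36 ± 0.12 (adjusted p = 0.177). The mitochondrially coded COX1 had -0.98 ± 0.36 (adjusted p = 0.223) and COX2 -0.15 ± 0.14. The ribosomal list had 34 of 43 genes below 0 and a median of -0.09, which was -0.0040 after quantile normalization, with Rpl13a at -0.35 ± 0.12 and Rpl39 at -0.26 ± 0.11.

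The proteasome list had 3 positive and 3 negative of 36 and a median of -0.08. Psmd14, a deubiquitinase of the regulatory particle, had 0.62 ± 0.16 (adjusted p = 0.095) and Psmd11 -0.47 ± 0.16 (adjusted p = 0.176). Of 12 cytosolic heat shock genes 2 were negative, Hspb1 at -0.52 ± 0.22 and Hspa1a at -0.19 ± 0.09. Of 18 chaperones of the endoplasmic reticulum and its stress response 3 were negative, including Hspa5 at -0.55 ± 0.20 (adjusted p = 0.215) and Xbp1 at -0.37 ± 0.13 (adjusted p = 0.207).

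Genes of splicing and the hnRNP proteins, which coat pre-messenger RNA, spread both ways. Of 47, 5 were positive and 6 negative (23.4%), with a median of -0.0017 (0.07 after quantile normalization). Srrm2, a scaffold of nuclear speckles, read 9.68, 10.25, 9.99 and 9.75 on low salt and 8.74, 8.90, 8.11 and 7.22 on high salt in ET3x1. In ET3x2 it read 9.62, 9.38, 9.50 and 9.50 on low salt and 9.70, 10.19, 9.51 and 9.00 on high salt. The high-salt ET3x1 rats were the 4 lowest and varied most (SD 0.76). The interaction was -1.77 ± 0.38 (adjusted p = 0.0555), and with only probe sets at or above the chip median tested the adjusted p was 0.0481. Hnrnpf had 0.53 ± 0.15 (adjusted p = 0.116).

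Leukocyte genes had 1 positive and 8 negative of 30 at an unadjusted p below 0.05 (30.0%, against 13.1% of all genes) and a median of -0.19 (-0.13 after quantile normalization). The negative ones included the class II genes RT1-Db1, RT1-Da, RT1-Bb and Cd74, which present antigen, and the macrophage genes C1qa, Csf1r, Mrc1 and Tyrobp. RT1-Db1 read 9.99, 10.32, 10.47 and 10.58 on low salt and 9.78, 9.62, 9.46 and 9.54 on high salt in ET3x1. In ET3x2 it read 10.61, 10.03, 9.57 and 10.21 on low salt and 10.33, 10.18, 10.21 and 10.27 on high salt. The ET3x1 groups did not overlap, and low-salt ET3x2 spread over 1 log2 unit. The interaction was -0.88 ± 0.25 (adjusted p = 0.109), while Cd74 had -0.36 ± 0.16 (adjusted p = 0.316) and the B cell gene Cd79b 0.34 ± 0.11 (adjusted p = 0.183).

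Other cell type lists held fewer such genes. Of 17 endothelial genes 2 were negative, the receptor Nrp1 at -0.74 ± 0.21 (adjusted p = 0.122) and the fenestral diaphragm gene Plvap at -0.46 ± 0.15 (adjusted p = 0.157). None of 9 podocyte, 11 smooth muscle, 5 erythroid or 7 adipocyte genes reached an unadjusted p below 0.05. Cd2ap had 0.34 ± 0.18, Ptpro -0.26 ± 0.16, Pdgfrb -0.20 ± 0.10, Des -0.18 ± 0.09 and Cidec 0.30 ± 0.16. Hba-a3 had -0.20 ± 0.40, Ahsp -0.09 ± 0.23 and Fabp4 0.23 ± 0.16. In the adrenal cortex list Cyp11a1 had 0.32 ± 0.15 and Star 0.12 ± 0.10, and in the hepatocyte list Serpina1 had 0.30 ± 0.13 and Alb 0.17 ± 0.11.

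Of 18 focal adhesion genes, 1 was positive and 2 negative by the brightest probe set, Pxn at -0.29 ± 0.13 and Tns1 at -0.28 ± 0.12 being the negative ones. Of 21 matrix genes 3 were negative, with Timp3 at -0.39 ± 0.14 and Mmp2 at -0.31 ± 0.14. Of 13 tubular injury genes 1 was positive, Cd44 at 0.21 ± 0.09, with Spp1 at 0.33 ± 0.19. Of 20 hypoxia-responsive genes, 1 was positive and 3 negative, with Ndrg1 at -0.44 ± 0.15 and Pfkfb3 at -0.36 ± 0.13. Of 27 cell division genes, 4 were positive and 1 negative, led by the replication helicase subunits Mcm4 at 0.45 ± 0.14 (adjusted p = 0.136) and Mcm3 at 0.36 ± 0.12. Of 19 insulin, IGF and IL-6 receptor genes, 2 were positive and 2 negative, with Lifr at 0.35 ± 0.12 and Foxo1 at -0.34 ± 0.12.

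The interaction was spread over the genome. Between 11.0% and 15.3% of the genes of each chromosome had an unadjusted p below 0.05. The last 100 tested genes of chromosome 3, on which the R segment of these strains lies, had 10 such genes and 0 past the adjusted threshold in limma, with a median of -0.03. Pcmtd2 had the smallest adjusted p there, 0.115, with an interaction of -0.81 ± 0.23. The 3 probe sets of Rtel1, a helicase gene of this region, had interactions of -0.05 ± 0.11, -0.05 ± 0.13 and 0.16 ± 0.12 (adjusted p = 0.544 to 0.888).

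Genes of larger genomic span lay slightly more often on the positive side. Across 13750 genes the Spearman rho of the interaction with the span was 0.06, and genes are not independent replicates. The median span was 28.2 kb for genes positive at an unadjusted p below 0.05, 22.8 kb for negative ones and 22.6 kb for all.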

How the data were processed

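Levels are the log2 values of Affymetrix RAE230A and RAE230B arrays as deposited by the authors in the value tables; the method that made them is not given in the sources used here. Chips of a rat were joined by animal number. No test used the control probe sets, 57 on either chip. Each chip was fitted with limma 3.58.1 in R 4.3.3 (lmFit, contrasts.fit, eBayes with intensity trend) with 6 groups as coefficients over 26 rats and 20 residual degrees of freedom. The interaction was tested two-sided, p-values were adjusted by Benjamini-Hochberg over both chips, and an adjusted p below 0.05 passed. Animals are separate, and each gave 1 RNA.

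Gene names come from GEO's platform annotation, updated through Entrez identifiers to GRCr8 names: 20253 probe sets had 1 symbol, 411 several and 10378 none. Named were all genes past the threshold with 1 symbol and a mean at or above the chip median (at most 12 in each direction), the 2 genes of largest moderated statistic in each of the 35 lists without a pass, Sgk1 and Agt. Further genes are named outside this rule. They are those past the threshold below the chip median, Slc12a3, Aqp3, Pcmtd2, Rtel1 and the leukocyte genes other than RT1-Db1 and Cd79b. Members and lists were chosen with earlier results of these data known. Alternatives covered scaling, filters, variance models, array weights, covariates and rats left out.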

Additional observations from a re-analysis of the deposited data

Results flagged for a closer look

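Dixon's gap test for 4 samples, which chance alone passes in about 1 of 20 groups, marked 3 of 80 groups of 4 rats. Replicate 2 of high-salt ET3x2 had an Actr3 level of 7.31, against 8.20 to 8.31 in the other 3. Replicate 3 of high-salt ET3x1 had a Gapdh 3' minus 5' difference of 0.55 on RAE230B, against 0.37 to 0.39. Replicate 2 of low-salt ET3x1 had a bioD minus bioC difference of 1.98 on RAE230B, against 2.29 to 2.34. These 3 rats are among the 6 whose omission left no probe set past the threshold. A link between the flags and the counts was not tested.

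The strains differed in the high minus low difference of 14 named genes, by the interaction test in limma. The values were 1.36 for Mmut, 1.26 for Actr3, 0.99 for Krcc1, 0.98 for Papss2, 0.76 for Cav2 and for Trib2, 0.68 for Mxi1, 0.60 for Pnpla3, 0.56 for Crem, 0.55 for Khdrbs1 and 0.49 for Vcl. They were -1.30 for Erbin, -1.24 for Pgpep1 and -1.07 for Tns1.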

How the results depend on the processing

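The count of 29 (24 positive, 5 negative) was 143 (89, 54) with the 16 congenic rats alone, 48 (42, 6) after quantile normalization and 58 (42, 16) with array medians centred. It was 47 (28, 19) over probe sets at or above the chip median, 25 (15, 10) over the brightest 25%, 19 (15, 4) without the intensity trend, 23 (19, 4) with robust eBayes and 30 (24, 6) with adjustment within each chip. Array weights, which ran from 0.296 to 2.49 on RAE230A, gave 2146 (1121, 1025). The covariates gave 0 (0, 0) with Gapdh, where 3938 had an unadjusted p below 0.05, 2 (0, 2) with beta-actin and 3 (2, 1) with the spike-ins.

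Leaving out 1 rat gave 0 to 388 in all, 0 to 213 positive and 0 to 175 negative. Counts over 1.5 times away, beyond the 7 rats named in the report, were 80 without replicate 1 and 10 without replicate 2 of high-salt ET3x1, and 16 without replicate 4 of low-salt ET3x1. They were 50 and 150 without replicates 1 and 4 of high-salt ET3x2, and 8 and 1 without replicates 3 and 4 of low-salt ET3x2. Among S rats they were 45 without replicate 3 on high salt, and 84, 51 and 98 without replicates 1, 4 and 5 on low salt. The causes were not tested. Of the 525 repeats of the 14 named interactions, 345 stayed on their side of the threshold, 180 did not and 0 reversed. The repeats reuse most of the values by which the 14 were chosen, so they are no separate evidence. For the list genes, the filter at the chip median gave 1 past the threshold, Srrm2, and the Gapdh covariate and gene averages gave 0. No paired analysis was possible because replicate numbers are only accession order within a group and the labels pair no rats.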
